A study of Mus musculus with 18 samples.

Results

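The genes described here are 10 secreted signalling proteins that astrocytes are known to make: the chemokines Ccl2, Ccl7, Ccl5, Cxcl1, Cxcl12 and Cx3cl1, the growth factor Csf1, and the cytokines Il6, Lif and Il33. They were picked by name, and each of the 10 matched 1 Entrez gene ID among the 26301 in the deposited count table, of which 22229 had a read. RNA was sequenced from cultured astrocytes of newborn mouse cortex in 6 groups of 3 libraries. In the co-culture groups, hippocampal neurons from newborn TdTomato+ mice had been plated on confluent astrocytes, and the cultures were collected after 2, 4 or 7 days. In the other groups, astrocytes were kept alone for the same 2, 4 or 7 days. All cultures had been expanded in medium with serum and then moved to N2 medium, and cells of both kinds were detached and sorted by TdTomato fluorescence, a red protein that marks the added neurons. By its title, the series asks how neuronal contact alters transcripts of astrocytes. The sources used here name no strain, sex or number of animals behind a culture, and astrocytes were passaged in dishes before use, which limits them as a model of astrocytes in tissue. In the labels, the 6 libraries that share a replicate number carry 1 date, so each library with neurons can be set against the one without them of its day and number.

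Chemokines are small secreted proteins that draw cells along a gradient by binding G-protein-coupled receptors, and most belong to the CC or the CXC class by the spacing of their first cysteines. Ccl2 and Ccl7 act on Ccr2, Cxcl1 on Cxcr2, Cxcl12 on Cxcr4 with Ackr3 as a scavenging receptor, and Cx3cl1 on Cx3cr1. Csf1 signals through Csf1r and keeps microglia alive, Il6 and Lif both signal through Il6st and STAT3, and Il33 acts on Il1rl1 after release from the nucleus of damaged cells. Inflammatory induction of many of these genes runs through NF-kappaB.

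Depth and library quality varied. In 16 of the 18 libraries the genes received 13950111 to 32623556 reads. The day 7 co-culture of replicate 1 held 8966485 reads, 40.5% of them on mt-Rnr2, and the day 2 culture of astrocytes alone of replicate 1 held 3242459 reads, 92.5% of them on a single gene ID, with at least 10 reads in only 1820 genes. In that last library 3 reads, the limit a count of 0 allows, correspond to 20.2 CPM (reads scaled to library size with TMM factors), against 0.504 CPM in the day 7 library and 0.0743 to 0.179 CPM in the remaining 16, and these limits cover counting error only. Both shallow libraries are replicate 1, and some results that rest on them are also given over 16 libraries. The astrocyte markers Gfap, Aqp4 and Slc1a3 averaged 803.5, 633 and 554 CPM over those 16 libraries, and reads from all 12 markers of the list summed to 1577 CPM or more in each of them. Of the deeper libraries 8, all 6 of replicate 2 and replicate 3 of both day 2 astrocytes alone and the day 7 co-culture, held no read of 30 genes that each of the remaining deep libraries had, and 0 of the 10 genes described here are among the 30.

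The upstream regions are shown first, with matches to the NF-kappaB site marked. RefSeq sequence (GRCm38.p6) of the 250 bases before the start site was at hand for 7 of the 10 genes, in 8 start sites, and not for Ccl2, Ccl5 and Ccl7. A search on both strands for the 10-base kappaB consensus matched Cxcl1 (chr5:90890995-90891244, plus strand), Csf1 (chr3:107760470-107760719, minus strand) and Il6 (chr5:30012864-30013113, plus strand), which is 3 of 8 member promoters, and 3.9% of all 32851 promoters held a match. Cxcl12 (chr6:117168285-117168534, plus strand) held none and is given for comparison. Cx3cl1, Lif and Il33 held none either. Sequences run 5′ to 3′ on the gene's strand and end at the base before the start site, and capitals mark the kappaB match.
Cxcl1: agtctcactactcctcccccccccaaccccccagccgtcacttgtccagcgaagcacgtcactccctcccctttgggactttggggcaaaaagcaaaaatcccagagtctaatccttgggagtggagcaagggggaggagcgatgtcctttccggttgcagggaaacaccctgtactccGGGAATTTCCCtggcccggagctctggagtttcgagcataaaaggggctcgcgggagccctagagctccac
Csf1: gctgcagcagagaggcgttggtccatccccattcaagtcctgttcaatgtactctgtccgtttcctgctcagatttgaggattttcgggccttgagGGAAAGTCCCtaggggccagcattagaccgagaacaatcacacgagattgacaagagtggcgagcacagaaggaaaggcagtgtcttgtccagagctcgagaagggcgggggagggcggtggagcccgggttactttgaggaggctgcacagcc
Il6: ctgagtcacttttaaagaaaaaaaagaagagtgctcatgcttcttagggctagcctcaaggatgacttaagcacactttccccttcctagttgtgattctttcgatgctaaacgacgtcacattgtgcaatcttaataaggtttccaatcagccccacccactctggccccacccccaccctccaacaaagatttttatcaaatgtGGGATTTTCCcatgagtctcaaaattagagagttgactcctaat
Cxcl12: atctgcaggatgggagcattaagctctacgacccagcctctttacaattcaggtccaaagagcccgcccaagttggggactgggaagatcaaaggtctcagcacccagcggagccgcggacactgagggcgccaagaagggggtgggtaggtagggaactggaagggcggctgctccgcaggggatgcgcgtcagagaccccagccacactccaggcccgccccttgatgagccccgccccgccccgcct
The match lay 71 to 61 bases before the start site in Cxcl1, where 2 matches overlap, 154 to 145 bases before it in Csf1 and 44 to 35 bases before it in Il6. The AP-1 motif TGANTCA was found in Il6 and Lif, which is 2 of 8, and in 6.75% of all promoters. The TATAAA motif was found upstream of Cx3cl1 and Il33, in 3 of 8 member promoters and 12.4% of all promoters. A match describes letters only, and no binding was measured here.

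Levels were compared between genes after dividing CPM by exonic length in kb (GENCODE M21), over the 16 deeper libraries. Csf1 had by far the highest median, 261 CPM per kb. Cxcl1 followed with 18.8, Ccl2 with 17.5, Ccl7 with 13.9, Ccl5 with 11.2, Cx3cl1 with 9.81 and Lif with 9.05 CPM per kb. Cxcl12 had a median of 2.12 CPM per kb, and Il6 and Il33 were the lowest with 0.532 and 0.495 CPM per kb. The ranges over libraries of every pair of neighbours in this order overlapped, also those of Csf1 (97.5 to 443 CPM per kb) and Cxcl1 (6.58 to 215 CPM per kb). Il6 and Il33 had only 686 and 1055 reads in all 18 libraries together, so their values carry the largest counting error.

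The values per library follow, in CPM, with replicates 1, 2 and 3 in that order. The CC chemokines Ccl2 and Ccl7, which recruit monocytes, are neighbouring genes on chromosome 11. At day 2, Ccl2 was at 49.3, 52.4 and 9.48 CPM with neurons, against 33.6, 119.9 and 9.74 CPM alone. At day 4, Ccl2 was at 24.4, 56.4 and 6.92 CPM with neurons, against 15.5, 65.0 and 7.01 CPM alone. At day 7, Ccl2 was at 57.3, 120.6 and 13.0 CPM with neurons, against 70.7, 9.36 and 12.7 CPM alone. Replicate 3 was low in both kinds of culture at each day, replicate 2 was the highest except alone at day 7, where it was the lowest, and the culture groups overlapped at each day. At day 2, Ccl7 was at 29.4, 94.0 and 7.89 CPM with neurons, against 6.72, 108.8 and 7.94 CPM alone. At day 4, Ccl7 was at 12.8, 49.98 and 1.43 CPM with neurons, against 9.47, 52.1 and 5.09 CPM alone. At day 7, Ccl7 was at 1.51, 98.1 and 9.41 CPM with neurons, against 38.8, 3.96 and 7.35 CPM alone. Ccl7 thus had the same order of replicate numbers as Ccl2 at day 4 and the same low value in replicate 2 alone at day 7, and its co-culture and single-culture ranges overlapped at each day. Its low replicate 1 value with neurons at day 7 comes from a shallow library, and its 6.72 CPM in replicate 1 alone at day 2 is 1 read of the shallowest.

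Ccl5 is a chemokine for T cells and macrophages, and its highest values lay at day 2. At day 2, Ccl5 was at 15.9, 85.2 and 16.97 CPM with neurons, against 0, 175 and 30.9 CPM alone, where the 0 allows up to 20.2 CPM. At day 4, Ccl5 was at 1.55, 16.8 and 0 CPM with neurons, where the 0 allows up to 0.179 CPM, against 3.24, 24.9 and 1.33 CPM alone. At day 7, Ccl5 was at 2.19, 5.65 and 1.53 CPM with neurons, against 25.2, 1.498 and 1.08 CPM alone. In co-culture the 3 values at day 7, 1 of them from a shallow library, lay below the 3 values at day 2. How many of all genes separate in this way was not counted, but 13.2% had an unadjusted p under 0.05 there (edgeR). Alone, the ranges of those days overlapped through replicate 1. The co-culture and single-culture ranges overlapped at each day.

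Cxcl1 attracts neutrophils. At day 2, Cxcl1 was at 46.5, 182 and 23.2 CPM with neurons, against 0, 198 and 22.7 CPM alone, where the 0 again allows up to 20.2 CPM. At day 4, Cxcl1 was at 25.2, 59.0 and 12.4 CPM with neurons, against 14.9, 47.9 and 16.3 CPM alone. At day 7, Cxcl1 was at 424, 163 and 45.2 CPM with neurons, against 402, 24.0 and 25.0 CPM alone. Replicate 2 was highest at days 2 and 4, but at day 7 replicate 1 was highest in both kinds of culture, and the culture ranges overlapped at each day. Cxcl12 holds Cxcr4-bearing precursor cells and leukocytes in place. At day 2, Cxcl12 was at 26.8, 105.5 and 10.2 CPM with neurons, against 26.9, 83.4 and 5.39 CPM alone. At day 4, Cxcl12 was at 18.9, 70.0 and 12.1 CPM with neurons, against 15.7, 76.4 and 6.51 CPM alone. At day 7, Cxcl12 was at 1.01, 196 and 4.47 CPM with neurons, against 23.1, 6.47 and 5.59 CPM alone. Here too replicate 2 was the highest in 5 of its 6 groups and dropped out of that order alone at day 7, and the culture ranges overlapped at each day.

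Cx3cl1, the membrane-bound chemokine fractalkine, is known mainly as a neuronal ligand for microglia. At day 2, Cx3cl1 was at 90.8, 161 and 17.8 CPM with neurons, against 26.9, 204 and 15.5 CPM alone. At day 4, Cx3cl1 was at 47.2, 88.1 and 12.9 CPM with neurons, against 29.9, 82.8 and 12.2 CPM alone. At day 7, Cx3cl1 was at 6.05, 97.2 and 20.9 CPM with neurons, against 114.9, 14.1 and 18.5 CPM alone. The transcript was present in astrocytes kept without neurons too, its values in replicate 3 ran from 12.2 to 20.9 CPM, and the culture ranges overlapped at each day. Csf1 had 448 CPM or more in every library. At day 2, Csf1 was at 2340, 1951 and 635 CPM with neurons, against 1029, 2314 and 515 CPM alone. At day 4, Csf1 was at 1401, 1899 and 683 CPM with neurons, against 1410, 2114 and 532 CPM alone. At day 7, Csf1 was at 448, 1360 and 814 CPM with neurons, against 1733, 623 and 827 CPM alone. Its spread between libraries was narrower than that of the chemokines, with replicate 3 the lowest at days 2 and 4, and the culture ranges overlapped at each day.

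Il6 and Lif are cytokines of the family that signals through Il6st. At day 2, Il6 was at 1.38, 1.88 and 0.833 CPM with neurons, against 0, 1.40 and 0.412 CPM alone. At day 4, Il6 was at 1.14, 1.30 and 0 CPM with neurons, against 1.77, 1.16 and 0.321 CPM alone, and at day 7, Il6 was at 8.57, 2.58 and 1.77 CPM with neurons, against 6.22, 1.28 and 0.4125 CPM alone. Il6 was at 2.58 CPM or less except in replicate 1 at day 7, where both cultures were higher, and its 0 in the shallow day 2 library allows up to 20.2 CPM. At day 2, Lif was at 175, 52.2 and 35.2 CPM with neurons, against 202, 54.4 and 28.1 CPM alone. At day 4, Lif was at 72.4, 26.6 and 25.1 CPM with neurons, against 201, 34.8 and 21.2 CPM alone. At day 7, Lif was at 85.6, 29.0 and 37.6 CPM with neurons, against 80.8, 80.2 and 41.2 CPM alone. Lif differed from the chemokines in that replicate 1 was the highest in each of the 6 groups, and in that replicate 2 alone at day 7 was its highest replicate 2 value. Its culture ranges overlapped at each day. Il33 is an alarmin of the interleukin-1 family. At day 2, Il33 was at 6.23, 8.10 and 1.23 CPM with neurons, against 13.5, 1.21 and 2.43 CPM alone. At day 4, Il33 was at 1.70, 1.34 and 0.0596 CPM with neurons, against 0.397, 1.46 and 1.33 CPM alone. At day 7, Il33 was at 0, 3.89 and 2.27 CPM with neurons, against 1.28, 2.46 and 1.39 CPM alone. Over the 16 deeper libraries Il33 ran from 0.0596 to 8.10 CPM, while its 13.5 CPM comes from 2 reads in the shallowest library and lies under the limit of 20.2 CPM there. The culture ranges overlapped at each day.

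**Figure D1:**
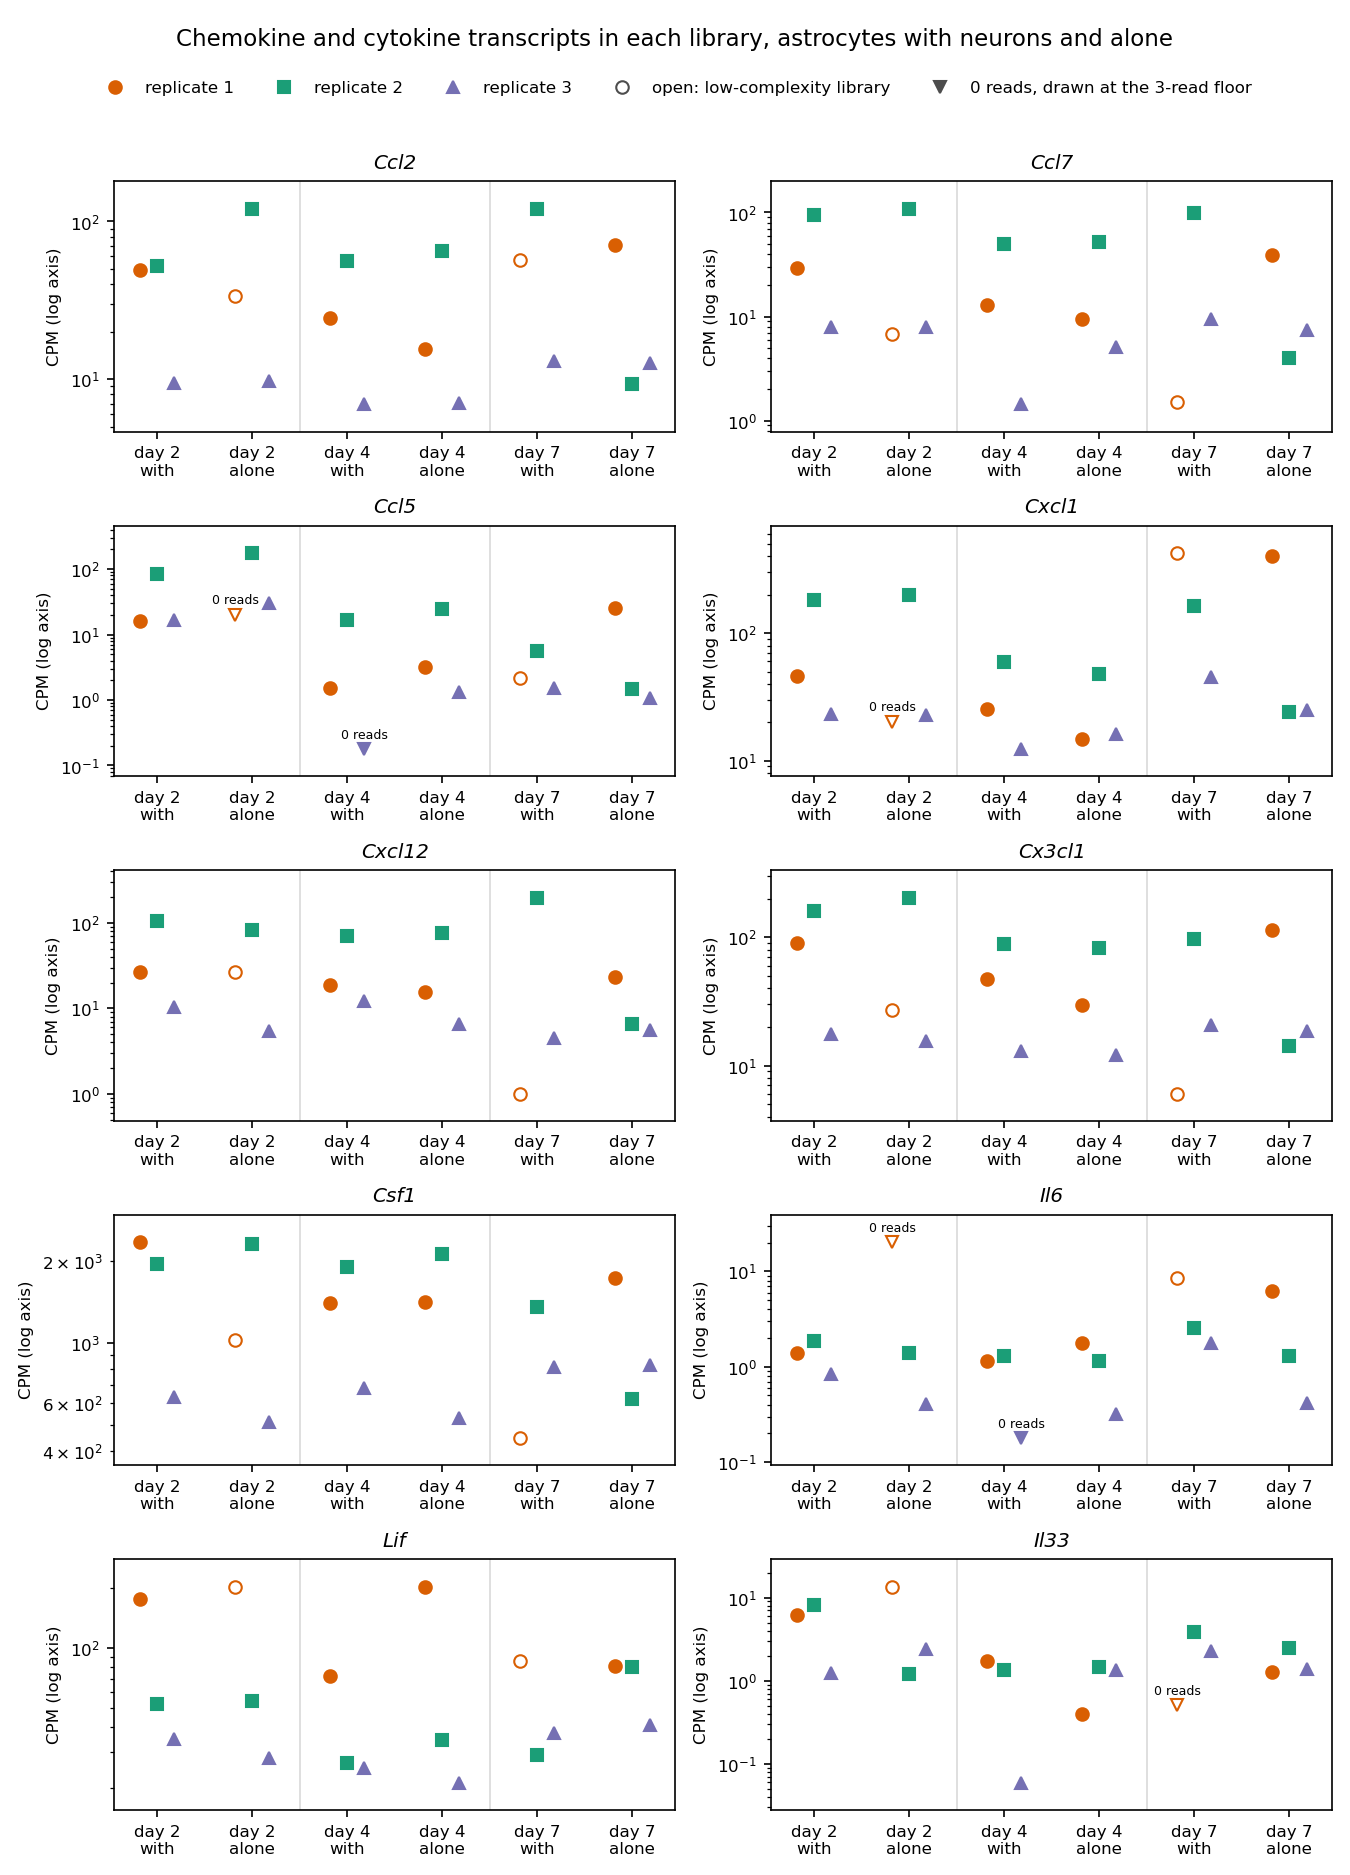
CPM (TMM-scaled, log axis) of the 10 genes in each of the 18 libraries, by day and culture, with 1 point per library and a symbol per replicate number. Replicate 2 is the highest for the 6 chemokines at days 2 and 4 but low alone at day 7 (Ccl2 120.6 CPM with neurons, against 9.36 CPM alone), and Lif is highest in replicate 1.

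None of the 10 transcripts passed the test for a difference between co-culture and astrocytes alone, at any day or on average. With edgeR's quasi-likelihood test and Benjamini-Hochberg adjusted p under 0.05, 0 of 10 members and 0.0% of the 16539 genes tested were called at day 2, day 4, day 7 and on the average over days. At an unadjusted p under 0.05 there were again 0 members in each, against 2.35%, 0.369%, 9.37% and 4.17% of all genes. DESeq2 and limma-voom called 0 members in each of these contrasts as well, while DESeq2 called 22 other genes at day 2 and 5 at day 7. With the replicate number as a block, 0 members and 1 other gene were called at day 7. The spread was wide: the standard error of a single-day log2 change ran from 0.64 for Csf1 to 1.49 for Ccl5. This fit holds no term for the replicate number, so differences between replicate numbers add to these errors. With the block, the error of the average change was 0.51 for Ccl7 and 0.42 for Cx3cl1, against 0.79 and 0.63 without it. The labels do not say that replicates came from different animals, so the p-values measure only how these libraries varied.

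On average over days, the fitted log2 change with neurons over alone was 0.93 ± 0.78 for Cxcl12 (SE, 18 libraries), 0.33 ± 0.79 for Ccl7, 0.32 ± 0.73 for Il6, 0.29 ± 0.75 for Il33, 0.26 ± 0.65 for Cxcl1 and 0.14 ± 0.60 for Ccl2. Csf1 and Cx3cl1 were at 0.01 ± 0.37 and 0.0098 ± 0.63, and these values lay on the other side of 0 with median-ratio or upper-quartile scaling. Lif was at −0.45 ± 0.47 and Ccl5 at −1.05 ± 0.84. The median of the 10 was 0.20, with 8 above 0, beside 0.02 for all genes tested. Over 16 libraries the fitted values of Cxcl1 and Il6 were −0.22 ± 0.67 and −0.05 ± 0.74, so that the sign of the fit turned. In the 7 pairs of deep libraries each was higher with neurons in 5, with median differences of 0.30 and 0.40 log2 units.

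Pairs of the same day and number pointed one way in 5 of the 30 combinations of gene and day. The share over all genes was not counted, and at days 2 and 7, 1 of the 3 pairs holds a shallow library. Il6 was higher with neurons in 3 of 3 pairs at day 7, with a fitted log2 change of 0.70 ± 1.22. At day 2 (0.67 ± 1.34) it counted as higher in all pairs, but the direction in replicate 1 cannot be read, since the 0 in the shallowest library allows up to 20.2 CPM. Cxcl1 was higher in 3 of 3 at day 7 (0.48 ± 1.12), Cx3cl1 in 3 of 3 at day 4 (0.25 ± 1.08), and Ccl5 was lower in 3 of 3 at day 4 (−0.69 ± 1.45). The adjusted p of these ran from 0.923 to 1 in edgeR's quasi-likelihood test. Without the shallow libraries, the day 7 values of Cxcl1 and Il6 were −0.54 and −0.28, from 2 co-culture libraries. That fit keeps replicate 1 alone (402 and 6.22 CPM) without its co-culture partner. In the pairs of replicates 2 and 3 both genes were higher with neurons, Cxcl1 by 2.76 and 0.854 and Il6 by 0.962 and 1.90 log2 units. The cause of the change in sign was not tested.

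The pairs of replicate 1 and replicate 2 at day 7 went in opposite directions for all genes but Cxcl1 and Il6. In replicate 2, Cxcl12 was 4.91 log2 units higher with neurons, Ccl7 4.604, Ccl2 3.68, Cx3cl1 2.78, Cxcl1 2.76, Ccl5 1.86 and Csf1 1.13, while Lif was lower by 1.47 (a difference of −1.47, where 9.66% of all genes were lower by at least 1). That is 7 of 10 members higher by at least 1 log2 unit, against 9.85% of all genes tested in the same pair. In replicate 1, Ccl7 was at −4.61, Cxcl12 at −4.41, Cx3cl1 at −4.23, Il33 at −4.08, Ccl5 at −3.48 and Csf1 at −1.95, which is 6 of 10 lower by at least 1 log2 unit, but 44.6% of all genes were lower by as much in that pair, which holds the shallow day 7 library. Il33 had 0 reads in that library, which allows up to 0.504 CPM, against 1.28 CPM alone. In replicate 3, Il6 at 1.90 was the 1 member that differed by at least 1 log2 unit at day 7 (8.01% of all genes were higher by as much).

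At days 2 and 4 few members differed within the pairs of deep libraries. Replicate 2 at day 4 had 0 members beyond 1 log2 unit in either direction, where 4.46% of all genes were higher and 2.15% lower. Replicate 3 at day 2 also had 0, beside 5.71% higher and 10.2% lower. Replicate 2 at day 2 had Il33 higher (2.67) and Ccl2 and Ccl5 lower (−1.19 and −1.04), beside 9.88% and 17.3% of all genes. Replicate 1 at day 4 had Il33 higher (1.90) and Lif and Ccl5 lower (−1.48 and −1.03), beside 6.95% and 11.3%. Replicate 3 at day 4 had Ccl5, Il33, Il6 and Ccl7 lower by at least 1 log2 unit, beside 29.1% of all genes, and 0 higher, beside 8.5%. There the 0 reads of Il6 with neurons allow up to 0.179 CPM, against 0.321 CPM alone, so the size of its difference cannot be read. Il33 had 1 read with neurons and 29 alone. Replicate 1 at day 2 had 6 of 10 higher, beside 41.3% of all genes, and 1 lower (Il33, −1.10), beside 14.9%, in a pair with the shallowest library.

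**Figure D2:**
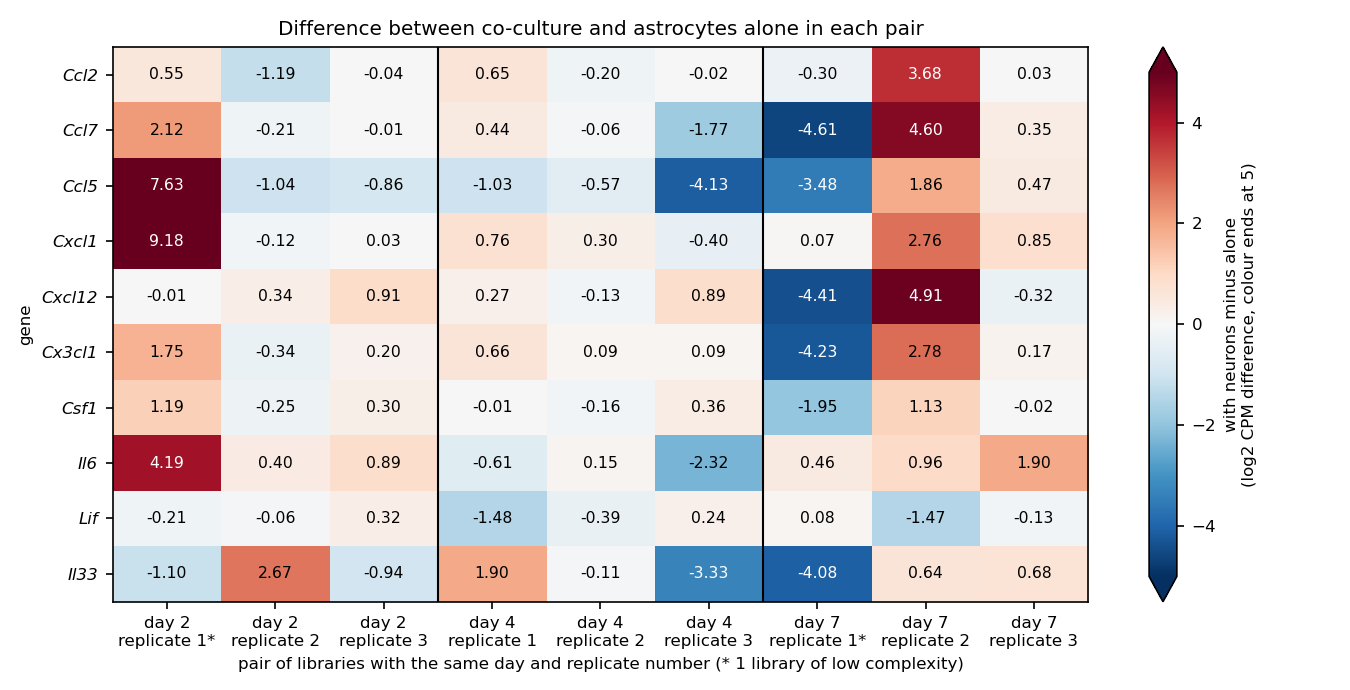
Difference in log2 CPM (with neurons minus alone, prior count 2) for each gene (rows) in each pair of the same day and replicate number (columns); red is higher with neurons, blue lower, and an asterisk marks a pair with a shallow library. The column of day 7, replicate 2 is red for 7 of 10 genes by at least 1 log2 unit, and the columns of replicate 2 at day 4 and replicate 3 at day 2 hold 0 such genes.

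**Figure D3:**
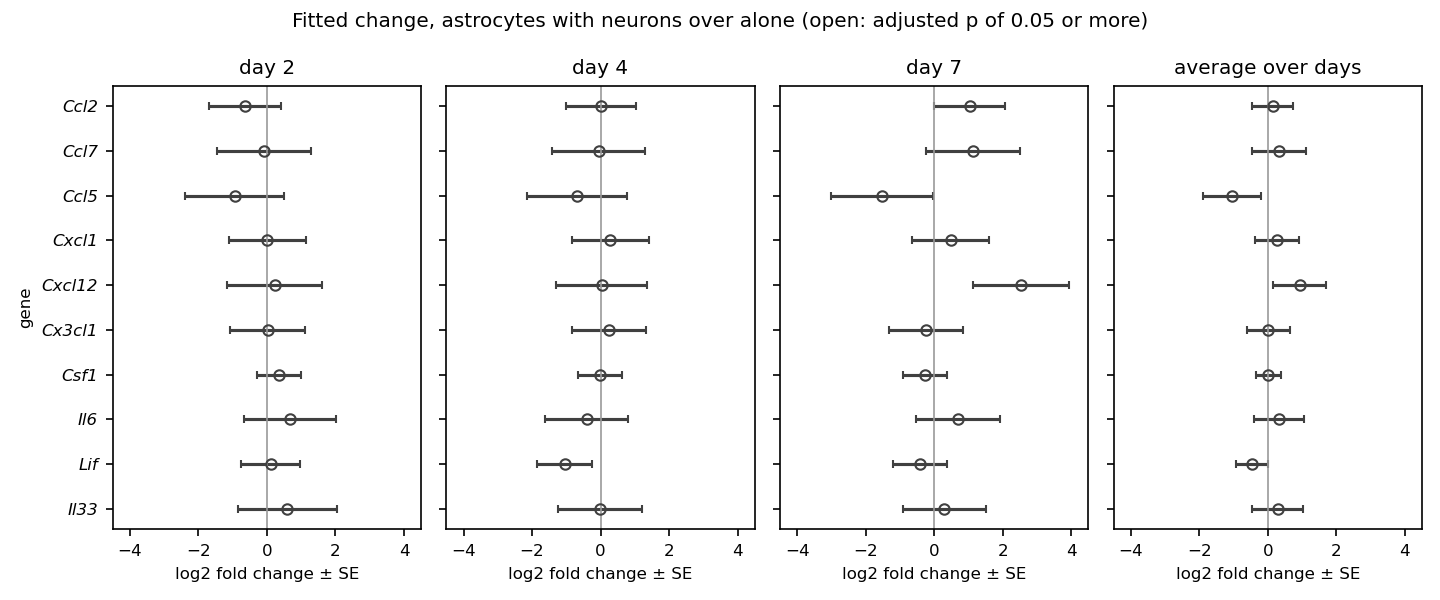
Fitted log2 fold change with neurons over alone (x axis, ± SE) for the 10 genes (y axis) at each day and on average, from edgeR over 18 libraries. All symbols are open, since 0 of 10 members had an adjusted p under 0.05 at any day or on average.

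None of the 10 passed the test for time either. Between day 7 and day 2, 0 of 10 members and 0.0% of all genes were called by edgeR's quasi-likelihood test, with neurons and alone, and 0 of 10 and 0.0% were called for each of the 3 comparisons of the co-culture difference between days. The count at an unadjusted p under 0.05 was 1 of 10 members for day 7 against day 2 with neurons, beside 13.2% of all genes, and 0 of 10 alone, beside 1.11%. DESeq2 and limma-voom called 0 members in these contrasts, although DESeq2 called 248 other genes with neurons. For those 3 comparisons the unadjusted count was 0 of 10 for day 7 minus day 2, day 7 minus day 4 and day 4 minus day 2, beside 5.47%, 3.07% and 1.06% of all genes. The 1 member was Ccl5, singled out after its values were seen, with a fitted log2 change of −3.63 ± 1.60 with neurons (adjusted p = 0.343, edgeR) and −3.03 ± 1.55 alone (adjusted p = 1, edgeR). The median fitted change of the 10, day 7 over day 2, was −0.52 with neurons and −0.87 alone, beside 0.03 and 0.01 for all genes.

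Differences that passed the test lay between replicate numbers, each of which has its own date in the labels. The 6 libraries of a number share its date and entered the fit as separate libraries. The p-values of these contrasts therefore do not measure variation between dates. Replicate 2 was higher than the other numbers for Cxcl12 (log2 change 2.91 ± 0.56, adjusted p = 0.00567), Ccl7 (2.71 ± 0.56, adjusted p = 0.0108), Cx3cl1 (1.87 ± 0.46, adjusted p = 0.032) and Ccl2 (1.79 ± 0.37, adjusted p = 0.0107) in edgeR with the group means and the replicate number in the model. That is 4 of 10 called higher, against 1.58% of all genes tested. Ccl5 (2.55 ± 0.72, adjusted p = 0.0715), Cxcl1 (1.32 ± 0.56, adjusted p = 0.355) and Csf1 (0.83 ± 0.30, adjusted p = 0.205) were fitted higher but did not pass. Over the 6 libraries of replicate 2, Cxcl12 ran from 6.47 to 196 CPM with a median of 79.9, against 15.7 to 26.8 CPM with a median of 21.0 in the 4 deeper libraries of replicate 1 and 4.47 to 12.1 CPM with a median of 6.05 in the 6 of replicate 3. Over 16 libraries the 4 calls stood, beside 1.78% of all genes. In bulk RNA, more cells of a type and more RNA per cell cannot be told apart.

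Replicate 3 was the low series. Ccl2 (−2.45 ± 0.40, adjusted p = 0.00169), Ccl7 (−2.48 ± 0.61, adjusted p = 0.0257), Cxcl12 (−2.45 ± 0.57, adjusted p = 0.0191), Cx3cl1 (−2.13 ± 0.50, adjusted p = 0.0198), Cxcl1 (−2.12 ± 0.59, adjusted p = 0.0467), Lif (−1.25 ± 0.27, adjusted p = 0.0104) and Csf1 (−1.14 ± 0.32, adjusted p = 0.0464) fell below the other replicate numbers by edgeR. That is 7 of 10, against 2.52% of all genes called lower. Il6 (−2.19 ± 0.71, adjusted p = 0.0915) and Ccl5 (−2.28 ± 0.78, adjusted p = 0.113) did not pass, and over 16 libraries Ccl5 passed as an eighth (−2.53 ± 0.77, adjusted p = 0.0492, edgeR), beside 5.09% of all genes. Il33 was not called for any number. Ccl2 had a narrow range in replicate 3, 6.92 to 13.0 CPM over its 6 libraries, and Csf1 ran there from 515 to 827 CPM. The contrasts of replicates 2 and 3 use the same libraries, so their calls are not independent of each other.

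Replicate 1 was set apart by Lif. Lif was higher there than in the other numbers by 1.81 ± 0.25 log2 units (adjusted p = 0.00112, edgeR), the 1 of 10 members called, against 1.45% of all genes called higher. Its 6 values ran from 72.4 to 202 CPM with a median of 130.1, against 26.6 to 80.2 CPM in replicate 2 and 21.2 to 41.2 CPM in replicate 3, so that only the value of replicate 2 alone at day 7 reached the range of replicate 1. Il6 was fitted 1.63 ± 0.66 higher in replicate 1 (adjusted p = 0.230, edgeR), and DESeq2 and limma-voom called it (adjusted p = 0.0375 and 0.0402). Over 16 libraries Lif was again called (1.79 ± 0.29, adjusted p = 0.00397, edgeR), beside 1.28% of all genes called higher. Il6 was at 1.66 ± 0.74 there (adjusted p = 0.321, edgeR).

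**Figure D4:**
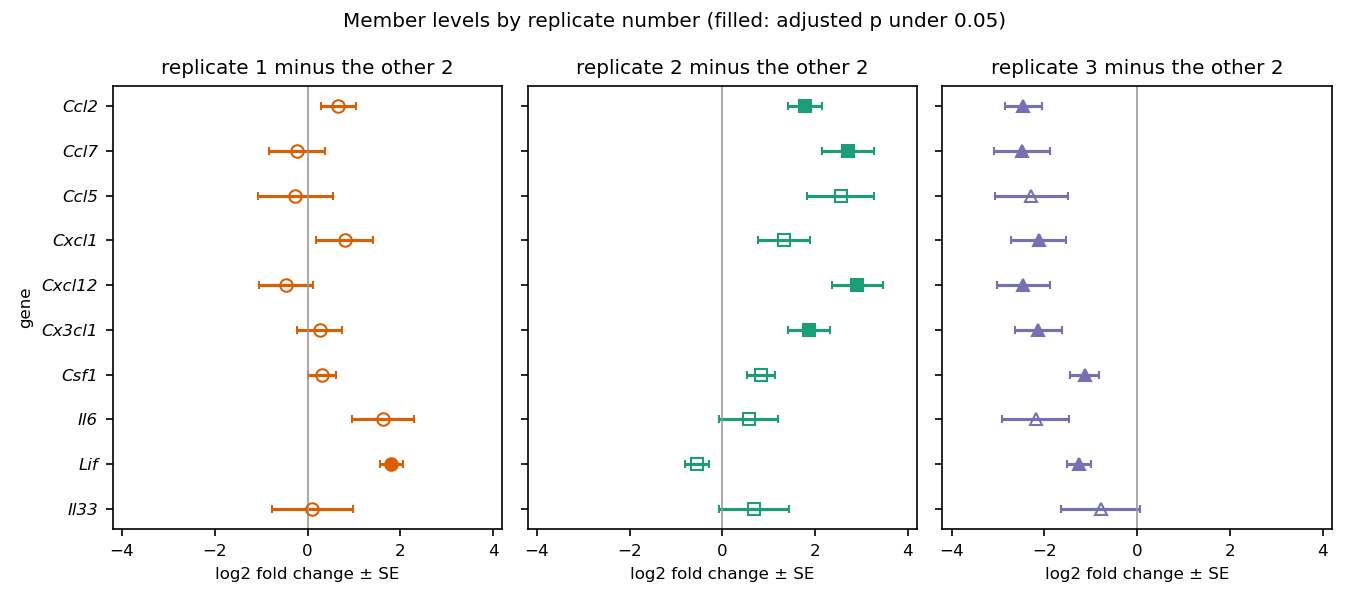
Log2 fold change (x axis, ± SE) of each gene (y axis) in replicate 1, 2 or 3 over the other 2 numbers, from edgeR with group means and replicate number, 18 libraries; filled symbols have an adjusted p under 0.05. Lif is filled in replicate 1, 4 chemokines in replicate 2 and 7 genes in replicate 3.

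Markers of microglia and macrophages, cells that make several of these chemokines, moved with the replicate number. Of 20 markers, 19 were tested. By edgeR, 14 were called higher in replicate 2 and 9 lower in replicate 3, beside 1.58% and 2.52% of all genes. The list medians were 4.54 and −3.85, beside 0.05 and −0.02 for all genes. Markers near 0 outside replicate 2, such as Fcer1g, passed the filter on low counts through the series in which they were high. The summed level of the 20 markers ran from 145.5 to 517 CPM (median 215) in the 6 libraries of replicate 2, against 10.2 to 78.3 CPM (median 49.95) in the 4 deeper libraries of replicate 1 and 9.54 to 17.8 CPM (median 15.4) in the 6 of replicate 3. Lyz2 ran from 47.4 to 187 CPM in replicate 2 and from 1.69 to 12.4 CPM in replicate 3. The defining markers C1qa, C1qb, C1qc and Fcer1g had a median of 0 in replicate 3, Ptprc one of 0.0129 CPM, and P2ry12 and Tmem119 stayed at or under 1.01 CPM in all 16 libraries. Replicate 2 alone at day 7 had a summed level of 234 CPM, within the range of its series. Lyz2 weighs most in such sums, with a mean of 52.3 CPM over 16 libraries, against 10.1 CPM for Ctss, the next highest. The sum therefore need not show the level of other markers, whose values in that library are not given here. For co-culture 0 of the 19 were called at any day or on average. Their fitted log2 changes with neurons were above 0 for 19 of 19 at day 7 (median 2.27, beside 0.0041 for all genes) and for 16 of 19 on average (median 1.185, beside 0.025). At day 7 the summed level was 278, 517 and 15.96 CPM with neurons, against 10.2, 234 and 14.9 CPM alone, with the first of these in a shallow library. The fitted changes of these markers are over 18 libraries and include that shallow one. The part of these cells in the differences between replicate numbers and between cultures was not tested. Cells were sorted by TdTomato fluorescence, and whether this removed microglia was not tested.

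Single libraries and days weighed on these calls. When the day 7 library of astrocytes alone of replicate 2, in which the chemokines were low, was left out, 7 of 10 members were called higher in replicate 2 (beside 2.20% of all genes), with Cxcl1, Ccl5 and Csf1 added. Without any 1 of the other 5 libraries of replicate 2, 1 or 2 members were called. Without the 6 libraries of day 7 the counts were 7 higher in replicate 2 (4.09% of all genes) and 8 lower in replicate 3 (7.54%), while without those of day 2 or of day 4 no member was called for any number by edgeR, with 6 libraries fewer in the fit. At an unadjusted p under 0.05 there were then 3, 5 and 8 members for replicates 1, 2 and 3 without day 2, and 1, 4 and 8 without day 4. The set of 8 libraries that lack 30 genes holds every replicate 2 library, and with a term for that set 0 members were called for replicate 1 and for replicate 2 (1 and 2 at an unadjusted p under 0.05) and 3 for replicate 3. The fitted changes in that fit were 1.99 ± 0.46 for Lif in replicate 1, and 3.755 ± 1.11 for Cxcl12, 2.205 ± 0.76 for Ccl2, 2.099 ± 1.09 for Ccl7 and 1.37 ± 0.91 for Cx3cl1 in replicate 2, with wider errors than without the term. Within the set, replicate 2 can be compared with only 2 libraries of another number.

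Other genes of the same pathways were counted from lists chosen with earlier results of these data known. Of 26 other chemokines, 19 were tested, and 8 were called higher in replicate 2 by edgeR, among them Ccl4 (5.48 ± 0.85), Ccl3 (5.501 ± 1.03), Ccl9 (4.45 ± 0.79) and Cxcl5 (3.73 ± 0.86), with a list median of 2.25 beside 0.05 for all genes. In replicate 3, 6 of the 19 were called lower, including Cxcl16 (−2.13 ± 0.39), Cxcl2 (−3.95 ± 0.83) and Ccl9 (−3.98 ± 1.08), with a list median of −3.88, or −2.36 with Ccl22, which had no read there, set at the limit of 3 reads per library. Several of these were near 0 outside replicate 2: Ccl3, which macrophages make in quantity, ran from 0.374 to 8.58 CPM in replicate 2, against 0 to 0.458 CPM in the 4 deeper libraries of replicate 1 and 0 to 0.155 CPM in replicate 3. Such genes passed the filter on low counts through the series in which they were high. The shares of all genes called were 1.58% higher in replicate 2 and 2.52% lower in replicate 3. Cxcl10, Cxcl14 and Cxcl16, which had reads in each of the 16 deeper libraries, averaged 29.01, 29.8 and 17.4 CPM there, and 0 of the 19 were called for co-culture at any day.

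Of 17 listed receptors of the 10 ligands, 12 were tested. Over the 16 deeper libraries the shared signalling chain Il6st averaged 413 CPM, the Il33 co-receptor Il1rap 86.95, the Lif receptor Lifr 39.3 and the Il6 receptor Il6ra 17.96 CPM. Ackr3 and Cxcr4, which bind Cxcl12, averaged 12 and 9.36 CPM. Cxcr2 had no read in any of the 16 libraries, and Ccr2 none in 13 of them. Csf1r, the 1 receptor called, was higher in replicate 2 (3.34 ± 0.76, adjusted p = 0.0211, edgeR) and lower in replicate 3 (−3.67 ± 0.95, adjusted p = 0.0326). The list medians were 0.68 and −0.57, and 1.58% of all genes were called higher in replicate 2 and 2.52% lower in replicate 3.

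Genes that NF-kappaB is known to induce also differed between replicate numbers. In replicate 2, 6 of 25 were called higher and 0 lower, beside 1.58% and 1.14% of all genes, with a list median of 1.10 beside 0.05 for all genes: Ptx3 (3.12 ± 0.58), Sod2 (1.54 ± 0.38), Vcam1 (1.44 ± 0.37), Tnfaip3 (1.34 ± 0.30), Tnip1 (1.26 ± 0.33) and Nfkbia (1.08 ± 0.20). In replicate 3, 7 of 25 were called lower, beside 2.52% of all genes, with Tlr2 at −2.19 ± 0.56 and Tnfaip2 at −1.88 ± 0.50 the furthest down, Traf1 was called higher (1.52 ± 0.38), and the list median was −0.86, beside −0.023 for all genes. Of 17 genes of the STAT3 response, Serpina3n, Cebpb, Fosl2 and Junb were called higher in replicate 2, and Fosl2, Icam1 and Junb were called lower in replicate 3, with list medians of 0.75 and −0.76. Gfap, the astrocyte filament gene on the same list, was called higher in replicate 3 (2.63 ± 0.22, adjusted p = 5.07e-06, edgeR) and lower in replicate 1 (−2.78 ± 0.26, adjusted p = 1.647e-05). Serpina3n, a gene of reactive astrocytes, was also called lower in replicate 1 (−1.996 ± 0.46, adjusted p = 0.0286, edgeR). Both lists had 0 members called for co-culture at any day. Of all genes tested, 0.792% were called lower in replicate 1 and 2.13% higher in replicate 3.

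The summed level of markers of the studied cell type was highest in replicate 3. Of 12 astrocyte markers, edgeR called 8 higher in replicate 3 (list median 1.25) and 6 lower in replicate 1 (list median −0.98). In replicate 2 there was 1 called higher, Slc1a2, and 1 lower, Slc1a3 (list median 0.033). The 12 markers summed to 4875 to 6642 CPM in replicate 3, against 2368 to 3480 CPM in replicate 2. In the 4 deeper libraries of replicate 1 they summed to 1577 to 2592 CPM. Gfap had the highest mean of the 12, with a median of 1529 CPM in replicate 3 and 492 CPM in replicate 2. Slc1a2 and Aldh1l1 had higher medians in replicate 2 (251.5 and 255 CPM) than in replicate 3 (141 and 213 CPM). Of 9 fibroblast and meningeal markers tested, 3 were called higher in replicate 3 and 3 lower in replicate 1. Neuronal markers summed to 159 to 439.5 CPM over the 16 libraries, and of the 11 tested 1 was called higher in replicate 1 and 1 lower in replicate 3. Of 8 oligodendrocyte lineage markers tested, 1 was lower in replicate 1 and 1 higher in replicate 3, and of 9 endothelial and mural markers 0 were called for any number. Among all genes, 1.45% were called higher and 0.792% lower in replicate 1. The shares were 1.58% and 1.14% in replicate 2, and 2.13% and 2.52% in replicate 3.

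The genes most like each member across the 16 deeper libraries were ranked by Pearson correlation of log2 CPM over 11913 genes, which is a description, since the libraries share dates and cultures. For Ccl2 they were Cx3cl1 (r = 0.965), Ccl7 (r = 0.952) and Cxcl16 (r = 0.948). For Cx3cl1 they were Icam1 (r = 0.967), H2-Q6 and Cxcl16, for Ccl7 Psme1 (r = 0.960), Psmb8 and Ccl2, and for Cxcl12 Svep1 (r = 0.945), Kcnf1 and H2-Q9. Csf1 was closest to Parp12 (r = 0.964), Igtp and Xaf1, Ccl5 to B4galt5 (r = 0.875), Phf11d and Psme1, and Cxcl1 to Tlr2 (r = 0.923), Tnfaip2 and Ripk2. Lif was closest to Dusp4 (r = 0.915), Rassf3 and Fzd7, Il6 to Gadd45b (r = 0.910), Sdf2l1 and Arrdc4, and Il33 to Snord15a (r = 0.902), Dmac1 and Commd10. Among the members, Lif had r between 0.0151 and 0.476 with the others, and Ccl2, Ccl7, Cx3cl1 and Cxcl12 had r of 0.867 or more with each other. H2-Q6 and H2-Q9 belong to a family of near-identical genes whose reads may be shared, and the same holds for Ccl12 beside Ccl2 and for Cxcl1, Cxcl2 and Cxcl3, since the sources used here do not say how reads with several matches were counted.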

How the data were processed

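Total RNA of 18 libraries was measured. Per the labels' protocols, RNA was extracted with TRIzol, ribosomal RNA was removed with the Ribogone kit, and cDNA libraries from SMARTer kits for low input were sequenced on an Illumina HiSeq. The authors deposited whole read counts per Entrez gene, made with Subread and featureCounts on the build mm9 per the submitters' processing notes; versions, strand setting and handling of multiple matches are unknown here, so overlapping and antisense partners cannot be told apart. Replicate numbers pair the libraries through their dates, and deviations from group means correlated at 0.108 to 0.469 within a number and at −0.346 to −0.0102 between numbers. A further 17 columns of correlations between libraries were not used.

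Starting from the counts in R 4.3.3, edgeR 4.0.16 was run with TMM scaling, filterByExpr by group and quasi-likelihood F tests on 6 group means over 18 libraries, and with the replicate number added for contrasts between numbers. Calls had a Benjamini-Hochberg adjusted p under 0.05 over 16539 genes. Standard errors were taken as the change divided by the root of F. Pair differences are log2 CPM with a prior count of 2. Alternatives were DESeq2 1.42.0, limma 3.58.1 (voom with quality weights), other scalings and filters, 16 libraries, the replicate block, a term for the set of 8 libraries and leave-outs. Leaving out the libraries of a whole day was added after seeing the data. The procedure was tested on simulated counts.

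Symbols came from RefSeq for 24191 of 26301 IDs. The reference genome is GRCm38, another build than that of the counts, so coordinates are given only for RefSeq upstream sequence. The members and gene lists were chosen with earlier results of these data known. Every member is named; fitted single-day changes are given where 3 pairs went one way.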

Additional observations from a re-analysis of the deposited data

How the results depend on the processing

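For co-culture, time and their interplay, the 10 genes had 0 calls under every alternative run, leave-outs included. Counts over all genes moved from 0 under some. DESeq2 called 22 genes at day 2, 5 at day 7, 248 and 3 for day 7 against day 2 with neurons and alone, and 3 for the co-culture difference of day 7 minus day 2. With the replicate block, 1 gene was called at day 7 and 1 for day 7 against day 2 with neurons, with no other call changed by the block alone, and over 16 libraries with the block 16 genes at day 2, 18 at day 7, 17 and 17 for time, and 23, 15 and 14 for day 7 minus day 2, day 7 minus day 4 and day 4 minus day 2. The term for the set of 8 libraries gave 1 gene at day 7. Leaving out single libraries or numbers gave 0 to 1 for day 7 minus day 2.

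For the contrasts of replicates 1, 2 and 3 over all genes, DESeq2 called 1368, 881 and 1743, limma-voom 1725, 1342 and 2444, the term for the set 1, 0 and 496, the fit without day 2 3, 6 and 57, without day 4 9, 37 and 35, and without day 7 1038, 1130 and 2526. Over 16 libraries replicate 3 had 1603. Leaving out single libraries gave 115 to 472, 212 to 581 and 322 to 1630. Of the 10 genes, DESeq2 and limma-voom each called 2 for replicate 1, the term for the set called 0, 0 and 3, the fits without day 2 or day 4 called 0 for each number, and without day 7 replicate 2 had 7. With single libraries left out, 1 to 7 were called for replicate 2 and 1 to 7 for replicate 3. For replicate 3 the count fell to 1 when its own day 4 library of astrocytes alone was left out, to 2 for either of its own day 2 libraries or the day 7 astrocytes alone of replicate 1, to 3 for its own day 4 co-culture or the day 2 astrocytes alone of replicate 2, and to 4 for its own day 7 astrocytes alone or the day 2 co-culture of replicate 1. Cxcl12 in replicate 2, Lif in replicate 1 and Ccl2 in replicate 3 were called in 18 of 18 leave-outs. In replicate 2, Ccl7 was called in 15 of 18, Ccl2 in 14 and Cx3cl1 in 5. In replicate 3, Lif was called in 17 of 18, Cxcl12 in 13, Cx3cl1 in 12, Ccl7 in 9, Cxcl1 in 5 and Csf1 in 3.

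The sign of some average co-culture changes turned, none of them called. Ccl7 was at −0.11 with the set term and −0.095 with the replicate block; Cxcl1 at −0.22 over 16 libraries and −0.21 with the block added; Cx3cl1 at −0.012 with median-ratio and −0.054 with upper-quartile scaling, −0.19 with the set term and −0.032 with the block; Il6 at −0.046 over 16 libraries. Csf1 was at −0.024 with median-ratio scaling and with DESeq2, −0.098 with upper-quartile scaling, −0.0020 without a filter and −0.031 with the set term. At day 7, Cxcl1 was at −0.54 over 16 libraries and −0.32 with the block added, and Il6 at −0.28. Leave-outs ranged from −0.17 to 0.74 for Ccl2, −0.58 to 1.17 for Ccl7, −0.17 to 1.14 for Cxcl1, −0.60 to 1.62 for Cxcl12, −0.54 to 0.75 for Cx3cl1, −0.0020 to 0.86 for Il6, −0.82 to 0.061 for Lif, −0.34 to 0.57 for Il33 and −0.17 to 0.24 for Csf1 on average, and from −3.59 to 1.36 for Ccl5 and −0.47 to 1.19 for Cx3cl1 at day 4, −0.53 to 3.10 for Cxcl1 and −0.27 to 2.33 for Il6 at day 7. The cause was not tested. Depth limits Il6 and Il33 in all libraries and every gene in the 2 shallow ones.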

Other observations

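Other cytokines also differed between replicate numbers. Of 27 listed, 23 were tested, and 7 were called higher in replicate 2 by edgeR, beside 1.58% of all genes, with a list median of 0.38. They include the inflammatory cytokines Il1b (6.15 ± 0.77), Tnf (5.16 ± 0.80) and Il1a (4.09 ± 0.68), which microglia are known to make, and the growth factors Tgfb3 (1.75 ± 0.34) and Tgfb2 (1.25 ± 0.31). Il1b ran from 0.428 to 64.1 CPM in the 6 libraries of replicate 2, against 0 to 0.596 CPM in the 6 of replicate 3. Il1rn and Tnfsf11, also called, stayed at or under 0.443 and 0.1375 CPM in the deeper libraries outside replicate 2. Such genes passed the filter on low counts through the series in which they were high. Tgfb3 ran from 32.5 to 170 CPM in replicate 2, against 29.6 to 59.8 CPM in replicate 3, so these ranges overlapped. In replicate 3, Tnf, Il1b and Il1rn were called lower, beside 2.52% of all genes. The list median there was −1.22, or −1.21 with Osm, which had no read there, at the limit of 3 reads per library. Mif, a cytokine kept in the cytoplasm, was the 1 called higher in replicate 1 (1.34 ± 0.34), beside 1.45% of all genes.

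Of 7 genes whose proteins cut chemokines and cytokines, 6 were tested. Casp1, which activates interleukin-1 cytokines, was called higher in replicate 2 (1.66 ± 0.43) and lower in replicate 3 (−1.72 ± 0.47), beside 1.58% and 2.52% of all genes. Adam10 and Adam17, which release the soluble form of Cx3cl1, averaged 121 and 54.4 CPM over 16 libraries and were not called for any replicate number.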
